A study of Homo sapiens with 17 samples.

Results

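A set of 59 genes, of 41040 named genes in the deposited tables, was higher 1 week after etoposide than in untreated cells and had lost much of that increase by week 4 without dropping clearly below the untreated level. The members were chosen on their mean CPM (a gene's count scaled to a fixed total of named-gene counts in each library). The mean at week 1 had to be at least 2 times that at week 0 and at least 2 CPM, and the mean at week 4 at most 0.6 of that at week 1 but more than 0.85 of that at week 0. In all, 74 genes met these thresholds, and 15 were left out by name (histone, potassium channel, cadherin and protocadherin and numbered LINC genes, SERPINB2 and SERPINB7). Since means of all 3 groups entered the choice, the members' levels and their differences between groups are described here without a test. The set held 55 protein-coding genes, 3 long non-coding RNAs and 1 transcribed pseudogene.

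The cells were IMR-90, a fibroblast line from human fetal lung. Bulk RNA-seq was made from untreated cells at week 0 (n = 5 libraries) and from cells given 20 µM etoposide for 48 h, freed of the drug and harvested at week 1 (n = 6) or week 4 (n = 6). Nothing in the labels says that replicates were separate cultures, so SDs and calls cover only a spread between libraries that could be purely technical. The sole control is the week 0 group, so time in culture and treatment cannot be told apart. Library totals were 77.2 to 102.8 M counts of named genes. Over 12 fibroblast markers the summed level was 43980 to 53339 CPM at week 0, 75103 to 81374 CPM at week 1 and 97630 to 101599 CPM at week 4. FN1 made up much of it, with means of 12672, 35652 and 42877 CPM, while DCN (1598, 1101 and 1236 CPM) and PDGFRA (391, 167 and 277 CPM) were highest at week 0. All 10 leukocyte markers stayed under 1 CPM in each library. Ribosomal protein genes took 6.38% and 5.62% of counts in week 0 replicates 1 and 4, against at least 3.48% in the other week 0 libraries. In bulk RNA, fewer cells with a transcript and less transcript per cell cannot be told apart.

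Etoposide traps topoisomerase II on DNA and leaves breaks in the strands. The break response stabilises p53, which drives CDKN1A and with it the arrest of the cell cycle. Over the following days and weeks arrested fibroblasts remodel their transcription, and genes of the acute damage response need not follow the same course as those of the later secretory state.

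Most genes that were up at week 1 were not of this kind. Of 714 genes with a mean of at least 2 CPM at week 1 and at least 2 times their week 0 mean, 76 (10.6%) had a week 4 mean of at most 0.6 of week 1, and 35.3% were above their week 1 mean at week 4. The median ratio of week 4 to week 1 over the 714 genes was 0.893, with quartiles of 0.717 and 1.12. The early-receding genes made up 8.26% of them. Both ratios contain the week 1 mean, so the count is that of the rule and no test of it was made. Just inside the limits lay CCDC9B at 2.03 and ARHGEF28 at 2.06 for week 1 over week 0, and MGARP at 0.595 and ATP8B1 at 0.592 for week 4 over week 1. Just outside lay CITED2 at 1.998 and FAM180A at 1.99, and P2RX5 at 0.603 and ICAM1 at 0.604. For the level at week 1, KCTD4 at 2.04 CPM and NPPB at 2.24 CPM lay inside, and FRMPD3 at 1.93 CPM and GSG1 at 1.87 CPM outside. No member was close to the lower limit of week 4 over week 0: the nearest inside were SH2D5 at 1.02 and MOK at 1.06, and the nearest outside YBX1P1 at 0.778 and EEF1D at 0.773.

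**Figure D1:**
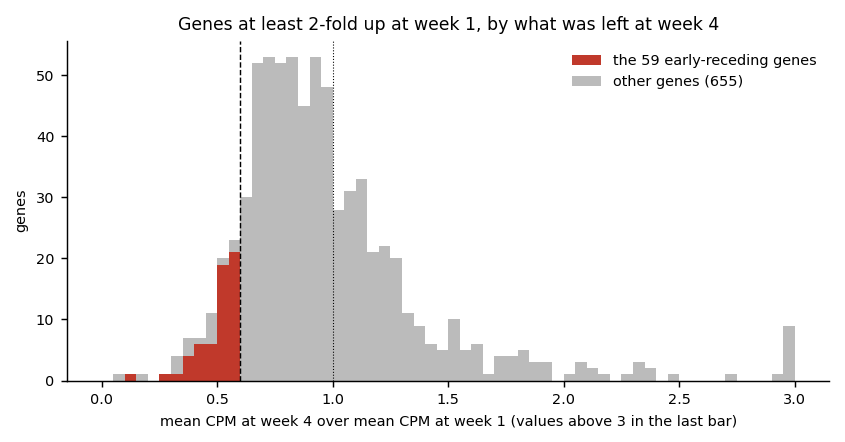
Histogram of the ratio of mean CPM at week 4 to mean CPM at week 1 (horizontal axis, no unit) for the 714 genes at least 2-fold up at week 1, with the number of genes on the vertical axis and the 59 early-receding genes in red stacked under the other 655 in grey. The dashed line is the limit of 0.6, below which 76 genes lie, and the dotted line marks a ratio of 1.

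Promoter sequence was looked at because the motifs did not enter the choice of members. The RefSeq table (GRCh38.p14) had windows of 250 bases before to 50 after the start for 42 of the 59 members and for 12457 tested genes. In these, 8 motifs were searched on both strands. Some genes had several windows (53 for the 42 members), and a gene was counted if any of its windows held the motif. The shares are therefore per gene and not per window. GGAATG, the core letters bound by TEAD factors, occurred in 11 of the 42 members (26.2%), against 15.2% of tested genes. GAANNTTC, a short form of the heat shock element, occurred in 5 of 42 (11.9%: ANKRD1, HSPB6, HSPB8, NEK10 and PAPPA2), against 6.69%. TGANTCA, the AP-1 site, occurred in 3 of 42 (7.14%: ANKRD1, CPA4 and MYOZ2), against 7.59%. The p53 half-site, searched as a pattern of letters, was in 3 of 42 (7.14%), against 7.75%. Sites outside the windows were not searched. TATAAA was in 5 of 42 (11.9%), against 9.16%, and CANNTG was in 31 of 42 (73.8%), against 67.7%. TGACGTCA and the CArG box, the site of SRF, were in 0 of 42, against 3.64% and 1.61% of tested genes. None of these shares was tested, motifs may overlap one another, and a match marks letters and no binding. Median GC content of the windows was 60.7% in members and 64.3% in tested genes.

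The stretches below are those with 2 TEAD-type words, with a heat shock word in the promoter of a small heat shock protein or of PAPPA2, and with 2 AP-1 words in the promoter of CPA4, the member of highest fold among those above 100 CPM. All lie upstream of the annotated start, are read 5′ to 3′ on the gene's strand, and carry the motif in capitals. In ANKRD1, on the minus strand at chr10:90921198-90921327, GGAATG starts 220 and 128 bases before the start. In CMKLR2, on the minus strand at chr2:206213372-206213481, the 2 words start 42 and 35 bases before it.
ANKRD1: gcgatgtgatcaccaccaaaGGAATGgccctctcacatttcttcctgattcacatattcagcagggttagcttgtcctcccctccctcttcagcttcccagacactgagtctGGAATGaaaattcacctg
CMKLR2: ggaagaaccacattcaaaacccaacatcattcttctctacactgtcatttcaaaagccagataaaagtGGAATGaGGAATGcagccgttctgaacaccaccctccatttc

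The heat shock word of HSPB6 lies 196 bases before the start on the minus strand, in chr19:35757140-35757249. That of HSPB8 lies 88 bases before the start on the plus strand, in chr12:119178811-119178920. PAPPA2 has 2, at 71 and 61 bases before the start on the plus strand, in chr1:176463065-176463174.
HSPB6: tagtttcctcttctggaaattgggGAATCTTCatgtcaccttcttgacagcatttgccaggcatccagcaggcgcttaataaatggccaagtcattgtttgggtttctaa
HSPB8: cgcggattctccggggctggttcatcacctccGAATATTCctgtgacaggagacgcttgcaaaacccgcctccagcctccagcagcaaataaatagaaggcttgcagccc
PAPPA2: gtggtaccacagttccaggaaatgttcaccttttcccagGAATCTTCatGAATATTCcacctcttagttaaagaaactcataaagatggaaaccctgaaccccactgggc

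The AP-1 words of CPA4 start 48 and 15 bases before the start on the plus strand, in chr7:130293051-130293160. The word nearer the start reads TGACTCA and the other TGAGTCA.
CPA4: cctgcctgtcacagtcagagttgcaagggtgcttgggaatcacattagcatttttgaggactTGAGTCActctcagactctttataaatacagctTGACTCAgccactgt

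The set spanned a wide range of levels. Mean levels ran from 0.0647 to 717 CPM at week 0 (median 5.17), from 2.04 to 3006 CPM at week 1 (median 17.9) and from 0.312 to 1561 CPM at week 4 (median 10.46). The ratio of week 1 to week 0 had a median of 3.48 and reached 40.3, with 22 members under 3, 16 at 5 or more and 11 at 10 or more. The share of the week 1 increase still present at week 4 (week 4 minus week 0, over week 1 minus week 0) had a median of 31.9%, ran from 1.49% to 53.4%, and was at least 50% in 5 members and under 20% in 15. Summed over members, the level was 2406 to 2785 CPM at week 0, 10003 to 10405 CPM at week 1 and 5060 to 5704 CPM at week 4. CCND1, CDKN1A and MFGE8 made up most of this sum. Without these genes it was 842 to 943, 2949 to 3103 and 1486 to 1766 CPM at weeks 0, 1 and 4. Week 4 replicate 6 gave the 5060 CPM, and the next lowest week 4 library had 5542 CPM.

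Every week 1 library lay above every week 0 library for all 59 members (18.7% of the 16891 tested genes did so) and above every week 4 library for all 59 (17.4% of tested genes). At week 4 all libraries lay above all week 0 libraries for 42 members (18.2% of tested genes) and overlapped them for 17. The mean at week 4 was below that at week 0 for none and at least 2 times it for 24. With edgeR's quasi-likelihood test on all libraries and a Benjamini-Hochberg adjusted p under 0.05, the 59 members were higher at week 1 than at week 0 (32.9% of tested genes were higher and 34% lower) and lower at week 4 than at week 1 (18.6% lower, 21.8% higher). At week 4 against week 0, 58 were higher (33.9% higher, 33.7% lower). The exception was TRIM55, with a log2 fold change of 0.28 ± 0.13 (SE). Because the rule used these contrasts and because genes enter the test through their high group, the counts describe the choice and add nothing to it. The median log2 fold change of members was 1.96 at week 1 against week 0 (all tested genes -0.02), -0.88 at week 4 against week 1 (all 0.01) and 1.02 at week 4 against week 0 (all 0.00). edgeR's values carry TMM scaling. Without it the median of all tested genes was -0.16 at week 1 and -0.17 at week 4 against week 0, and -0.02 at week 4 against week 1, so the CPM ratios given here are lower than edgeR's folds in both comparisons with week 0.

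**Figure D2:**
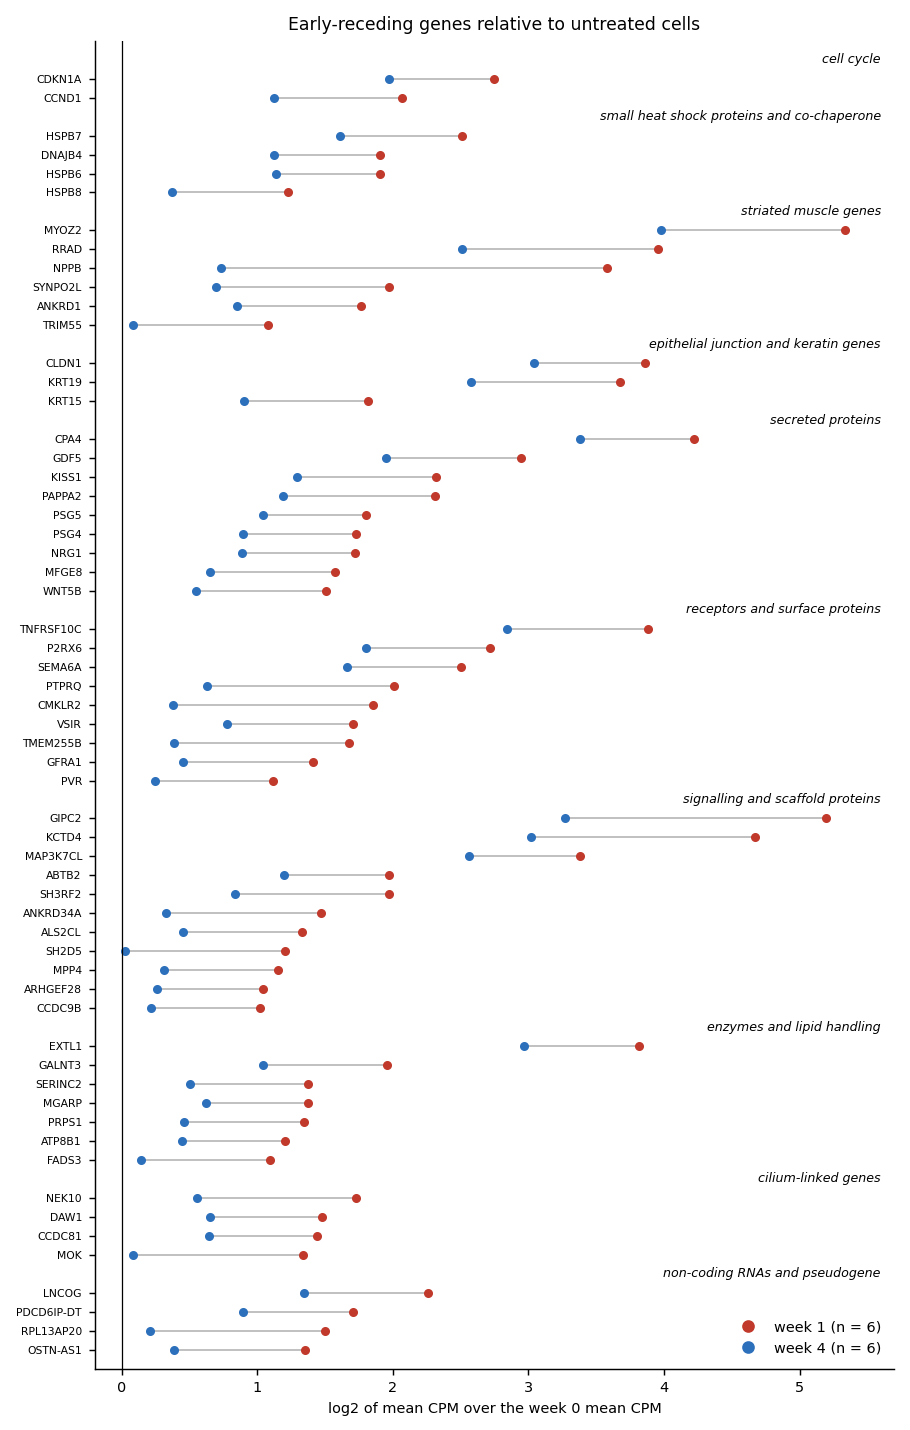
Log2 ratio of mean CPM to the week 0 mean CPM (horizontal axis) for each of the 59 members at week 1 (red, n = 6) and week 4 (blue, n = 6), grouped by role, with the line at 0 for the week 0 level (n = 5). The red point is to the right of the blue one for every member, as the rule requires, and the blue points run from beside the line (SH2D5, at 1.02 times week 0) to 15.7 times week 0 (MYOZ2).

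Opposed regulators of G1 stood at the top of the set. CCND1 encodes cyclin D1, which activates CDK4 and CDK6, and CDKN1A encodes p21, an inhibitor of cyclin-dependent kinases and a classic p53 target. CCND1 had 648, 770, 615, 766 and 785 CPM at week 0, a lowest, median and highest of 2818, 3015 and 3138 CPM at week 1, and of 1439, 1573 and 1615 CPM at week 4. CDKN1A had 292, 316, 296, 320 and 327 CPM at week 0, 1997, 2098 and 2141 CPM at week 1, and 1164, 1215 and 1266 CPM at week 4. For both genes no library of any group overlapped another group. The mean of CCND1 at week 1 was 4.19 times that at week 0, and 36.9% of the increase remained at week 4. CDKN1A was 6.73 times its week 0 mean at week 1 and kept 51.1% of the increase, one of the highest shares in the set. Per kilobase of gene length, CDKN1A (696 CPM per kb) was above CCND1 (631 CPM per kb) at week 1. At week 0, CCND1 (151 CPM per kb) was above CDKN1A (104 CPM per kb). The other D-type cyclins did not share the course: CCND2 had 4.79 ± 0.84, 103 ± 7.54 and 108 ± 5.95 CPM at weeks 0, 1 and 4 (mean ± SD), and CCND3 had 88.8 ± 6.49, 72.0 ± 1.55 and 49.7 ± 2.22 CPM. Of 27 genes of DNA replication and mitosis, 0 were higher and 27 lower at week 1 than at week 0 by edgeR (32.9% and 34% of all tested genes). At week 4 against week 1, 19 were higher and 1 lower (21.8% and 18.6% of all). RRM2, a subunit of ribonucleotide reductase, had 388 ± 12.9, 42.2 ± 1.89 and 42.3 ± 4.20 CPM at weeks 0, 1 and 4.

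**Figure D3:**
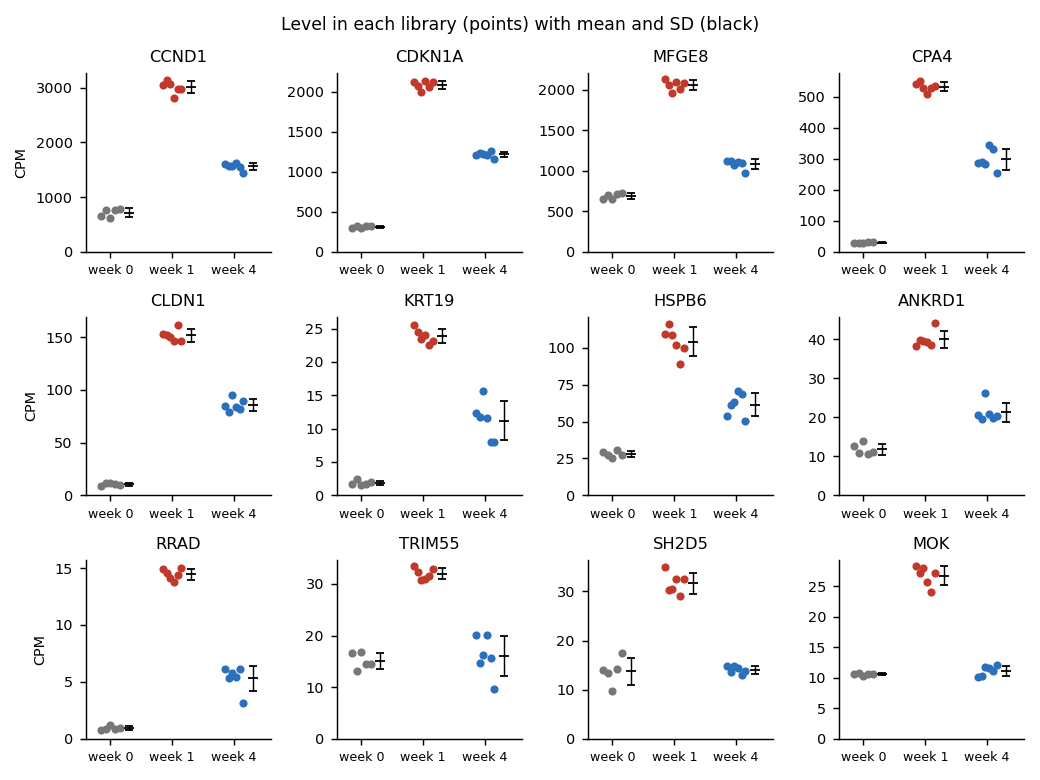
CPM (vertical axis, linear and starting at 0, with its own scale in each panel) of 12 members in each library, for week 0 (grey, n = 5), week 1 (red, n = 6) and week 4 (blue, n = 6), with mean and SD in black. In the upper rows the week 4 points lie between the other groups, while those of TRIM55, SH2D5 and MOK overlap the week 0 points.

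Secreted proteins were 9 of the members, with week 1 means of 2.84 to 18.6 times week 0 and 25.2% to 53.4% of the increase left. In all 9, every week 4 library was above every week 0 library, as in 42 of all 59 members and 18.2% of tested genes. CPA4, a secreted metallo-carboxypeptidase, had 27.9, 26.8, 27.6, 30.4 and 30.5 CPM at week 0, a lowest, median and highest of 509, 533 and 551 CPM at week 1, and of 254, 289 and 344 CPM at week 4. Its log2 fold change was 4.38 ± 0.07 (SE) for week 1 against week 0 and -0.81 ± 0.06 for week 4 against week 1. On the unscaled CPM its mean at week 4 was 10.4 times that at week 0. LXN, which encodes latexin, an inhibitor of A-type carboxypeptidases, was lowest at week 1, with 77.9 ± 21.3, 50.2 ± 3.68 and 97.7 ± 8.02 CPM at weeks 0, 1 and 4. MFGE8 encodes lactadherin, which bridges phosphatidylserine on dying cells to integrins of phagocytes. It had 652, 701, 653, 715 and 730 CPM at week 0, 1964, 2069 and 2130 CPM at week 1, and 972, 1101 and 1125 CPM at week 4. Its week 4 libraries thus lay closer to week 0 than to week 1, with 28.7% of the increase left.

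The remaining secreted members included ligands of several pathways. WNT5B, a ligand of non-canonical Wnt signalling, had 44.8 ± 3.79, 127 ± 7.26 and 65.6 ± 6.79 CPM at weeks 0, 1 and 4, while its close relative WNT5A had 369 ± 35.4, 325 ± 17.1 and 424 ± 32.7 CPM. NRG1, an EGF-family ligand of ERBB3 and ERBB4, had 10.6 ± 1.52, 35.1 ± 2.08 and 19.7 ± 1.48 CPM. GDF5, a BMP-type ligand, had 1.34 ± 0.25, 10.4 ± 0.89 and 5.19 ± 0.52 CPM, and KISS1, the precursor of kisspeptins, had 4.73 ± 0.66, 23.5 ± 1.53 and 11.6 ± 2.07 CPM. PAPPA2, a protease that cleaves IGF-binding proteins, had 1.75 ± 0.40, 8.72 ± 1.32 and 4.00 ± 0.53 CPM. Its paralog PAPPA had its highest level at week 4 instead, with 121 ± 20.9, 384 ± 47.1 and 516 ± 57.8 CPM. PSG4 and PSG5 belong to the pregnancy-specific glycoproteins, a family of closely similar placental proteins. PSG4 had 51.0 ± 2.48, 169 ± 8.20 and 95.1 ± 10.2 CPM and PSG5 had 15.3 ± 0.76, 53.2 ± 1.92 and 31.4 ± 5.33 CPM. Reads shared between these genes may have been split or dropped by the counting, so the level of each single PSG gene is uncertain. PSG1, outside the set, had 1.08 ± 0.30, 12.5 ± 0.40 and 10.3 ± 1.32 CPM, a ratio of week 4 to week 1 of 0.827. The same ratio was 0.561 for PSG2, 0.519 for PSG6, 0.528 for PSG3, 0.638 for PSG9, 0.875 for PSG7 and 0.911 for PSG11, all outside the set and at most 2.65 CPM at week 1.

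Small heat shock proteins, chaperones that bind unfolded proteins and are abundant in muscle, gave 3 members, and the co-chaperone DNAJB4 a 4th of this kind. HSPB6 had 29.4, 27.5, 24.9, 30.4 and 27.1 CPM at week 0, a lowest, median and highest of 88.8, 106 and 117 CPM at week 1, and of 50.6, 62.0 and 70.5 CPM at week 4. No library of any group overlapped another group. HSPB7 had 2.13 ± 0.44, 12.2 ± 0.67 and 6.52 ± 0.94 CPM at weeks 0, 1 and 4, HSPB8 had 17.5 ± 1.36, 41.0 ± 2.02 and 22.7 ± 1.29 CPM, and DNAJB4 had 29.7 ± 1.90, 111 ± 5.31 and 64.7 ± 4.02 CPM. The share of the increase left was 42.9% to 43.8% in HSPB6, HSPB7 and DNAJB4 and 21.9% in HSPB8. Among relatives outside the set, HSPB3 had a mean highest at week 1 at a very low level, with 0.166 ± 0.140, 0.333 ± 0.129 and 0.118 ± 0.081 CPM. The means of HSPB1, CRYAB and DNAJB1 were highest at week 0. HSPB1 had 461 ± 17.5, 451 ± 27.6 and 408 ± 24.9 CPM, CRYAB had 15.6 ± 0.65, 14.7 ± 1.36 and 15.04 ± 1.58 CPM, and DNAJB1, a gene strongly induced by heat, had 147 ± 2.14, 137 ± 3.24 and 110 ± 3.58 CPM. BAG3, the partner of HSPB8 in chaperone-assisted autophagy, had 138 ± 11.3, 156 ± 3.67 and 118 ± 4.94 CPM. The relatives outside the set were picked after their values were seen.

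**Figure D4:**
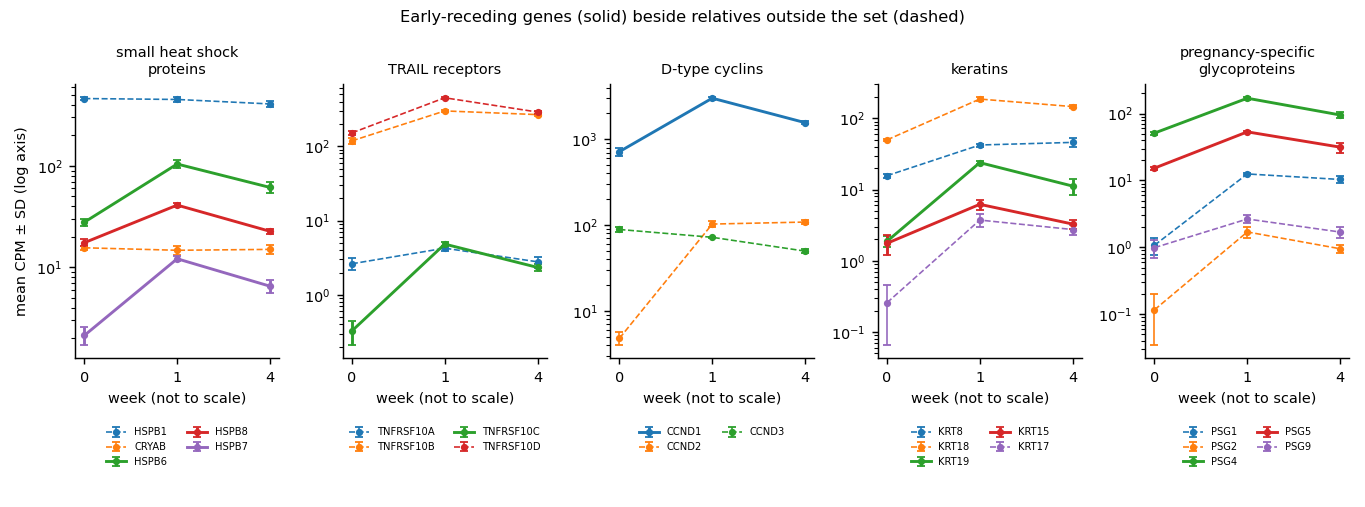
Mean CPM with SD (vertical axis, log scale) at weeks 0, 1 and 4 (horizontal axis, not to scale; n = 5, 6 and 6 libraries) for members (solid lines) and relatives outside the set (dashed lines) in 5 gene families. HSPB1 and CRYAB run nearly level beside HSPB6, HSPB7 and HSPB8, and CCND2 (103 CPM at week 1 and 108 CPM at week 4) and KRT8 (42.3 and 46.0 CPM) do not recede beside CCND1, KRT19 and KRT15.

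Genes best known from heart and skeletal muscle were 6 further members. ANKRD1, a protein of the sarcomere and nucleus and a widely used YAP target, had 12.6, 10.7, 13.8, 10.47 and 11.1 CPM at week 0, a lowest, median and highest of 38.2, 39.3 and 44.0 CPM at week 1, and of 19.4, 20.4 and 26.3 CPM at week 4. RRAD, a GTPase that restrains voltage-gated calcium channels, had 0.800, 0.862, 1.20, 0.834 and 0.970 CPM at week 0, 13.8, 14.5 and 14.97 CPM at week 1, and 3.14, 5.61 and 6.09 CPM at week 4. The groups did not overlap in either gene. The log2 fold change of RRAD at week 1 against week 0 was 4.12 ± 0.15 (SE), one of the largest in the set. GEM, a GTPase of the same family outside the set, was lowest at week 1, with 48.4 ± 2.60, 16.98 ± 0.97 and 29.1 ± 1.79 CPM.

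TRIM55, a ubiquitin ligase of the sarcomere, had 16.6, 13.1, 16.9, 14.5 and 14.5 CPM at week 0, 30.8, 31.9 and 33.4 CPM at week 1, and 9.62, 15.9 and 20.2 CPM at week 4. Its week 4 libraries spanned the whole range of the week 0 libraries, and 5.50% of the increase was left. MYOZ2, a Z-disc protein that binds calcineurin, was near zero in untreated cells, with 10, 17, 4, 4 and 0 counts per library, and had 2.83, 3.27 and 3.74 CPM at week 1 and 0.882, 1.33 and 1.46 CPM at week 4. Its ratio of week 1 to week 0, 40.3, was the highest of the set and rests on those few counts. For MYOZ2, week 1 against week 0 gave a log2 fold change of 5.48 ± 0.33 (SE), and 6.11 without week 0 replicate 3. NPPB, the precursor of brain natriuretic peptide, had 0.187 ± 0.096, 2.24 ± 0.34 and 0.312 ± 0.127 CPM at weeks 0, 1 and 4. That is the lowest week 4 to week 1 ratio among the members, 0.139. SYNPO2L, an actin-binding Z-disc protein, had 1.25 ± 0.20, 4.92 ± 0.44 and 2.03 ± 0.33 CPM.

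A list of 27 striated muscle genes was drawn up after the members were known and includes 7 of them, HSPB7 among these. That count follows from how the list was made and is no result. Of the 27 genes, 16 had enough counts to be tested. ACTC1, cardiac actin, was highest in untreated cells, with 13.1 ± 1.17, 0.424 ± 0.229 and 0.763 ± 0.131 CPM at weeks 0, 1 and 4, and DES, desmin, had 0.821 ± 0.197, 2.53 ± 0.39 and 3.39 ± 0.48 CPM. TTN, titin, had 4.49 ± 1.17, 4.13 ± 0.26 and 4.77 ± 0.83 CPM. ANKRD2, a relative of ANKRD1, was highest at week 0, with 0.586 ± 0.224, 0.291 ± 0.098 and 0.219 ± 0.095 CPM. So was MYOZ3, a relative of MYOZ2, with 0.81 ± 0.162, 0.221 ± 0.12 and 0.424 ± 0.097 CPM. MYOZ1 was highest at week 4 (0.398 ± 0.112 CPM). MYH6, MYH7, TNNT2, TNNI3, MYL2 and MYOG had too few counts to be tested. Some others outside the set were highest at week 1, as the members were. SYNPO2, a relative of SYNPO2L, had 12.3 ± 1.42, 19.6 ± 3.05 and 14.1 ± 1.91 CPM, and XIRP1, an actin-binding protein of striated muscle, had 0.159 ± 0.074, 0.664 ± 0.139 and 0.335 ± 0.159 CPM. MYL7, atrial myosin light chain, had 0.0354 ± 0.0357, 0.160 ± 0.067 and 0.0842 ± 0.0821 CPM.

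Junction and keratin genes typical of epithelia were 3 members. CLDN1, a tight junction protein, had 8.42, 11.2, 11.3, 11.1 and 10.1 CPM at week 0, a lowest, median and highest of 146, 151 and 162 CPM at week 1, and of 78.9, 84.1 and 95.5 CPM at week 4. KRT19, a type I keratin, had 1.65, 2.39, 1.58, 1.74 and 2.01 CPM at week 0, 22.6, 23.7 and 25.6 CPM at week 1, and 7.96, 11.6 and 15.7 CPM at week 4. Neither gene's groups overlapped, and KRT19 varied more between week 4 libraries than CLDN1 did. KRT15, another type I keratin, had 1.76 ± 0.56, 6.21 ± 0.96 and 3.28 ± 0.45 CPM. Of 10 epithelial markers, 6 (EPCAM, CDH1, KRT5, KRT14, CLDN7 and SFTPC) were under 1 CPM in every library. The markers summed to 70.2 to 77.1 CPM at week 0, 239 to 279 CPM at week 1 and 199 to 217 CPM at week 4, most of it KRT8 and KRT18, and without KRT19 to 68.6 to 74.7, 216 to 255 and 191 to 202 CPM. KRT18 had 49.9 ± 1.87, 187 ± 13.8 and 146 ± 6.94 CPM and KRT8 had 15.7 ± 1.13, 42.3 ± 2.04 and 46.0 ± 6.30 CPM. CLDN4, the remaining epithelial marker, was highest at week 0, with 5.22 ± 0.27, 3.28 ± 0.25 and 4.49 ± 0.41 CPM at weeks 0, 1 and 4. Of 11 tested claudins, only CLDN1 was at least 2-fold up at week 1 with a mean of at least 2 CPM.

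Receptors and other surface proteins gave 9 members. PVR, the receptor CD155 that ligates DNAM-1 and TIGIT on lymphocytes, had 133, 146, 124, 150 and 164 CPM at week 0, a lowest, median and highest of 301, 311 and 321 CPM at week 1, and of 165, 169 and 178 CPM at week 4. A narrow gap was left between week 4 and week 0, and 15.9% of the increase remained. NECTIN2, the other main ligand of DNAM-1, had 154 ± 11.3, 157 ± 4.56 and 132 ± 3.61 CPM. TNFRSF10C, a decoy receptor for TRAIL without a death domain, had 0.371, 0.437, 0.187, 0.427 and 0.214 CPM at week 0, 4.31, 4.96 and 5.09 CPM at week 1, and 1.87, 2.40 and 2.68 CPM at week 4. Among the other TRAIL receptors, TNFRSF10B, which carries a death domain and is a p53 target, had 118 ± 9.55, 299 ± 5.95 and 267 ± 7.39 CPM. TNFRSF10D, a decoy with a truncated death domain, had 152 ± 9.90, 450 ± 13.2 and 289 ± 12.9 CPM. TNFRSF10A, the other receptor with a death domain, had 2.62 ± 0.48, 4.25 ± 0.33 and 2.79 ± 0.46 CPM. The ratio of week 4 to week 1 was 0.485 for TNFRSF10C, 0.642 for TNFRSF10D, 0.656 for TNFRSF10A and 0.892 for TNFRSF10B.

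CMKLR2, a receptor for chemerin, had 1.94 ± 0.21, 7.02 ± 0.34 and 2.53 ± 0.59 CPM at weeks 0, 1 and 4, with 11.5% of the increase left and week 4 libraries that overlapped those of week 0. VSIR, the immune checkpoint protein VISTA, had 10.8 ± 0.76, 35.3 ± 1.67 and 18.5 ± 1.51 CPM. GFRA1, the co-receptor for GDNF, had 16.3 ± 1.65, 43.3 ± 3.15 and 22.2 ± 1.51 CPM. SEMA6A, a transmembrane semaphorin, had 0.871 ± 0.193, 4.93 ± 0.67 and 2.75 ± 0.53 CPM, and P2RX6, a subunit of ATP-gated channels, had 0.745 ± 0.136, 4.89 ± 0.67 and 2.60 ± 0.38 CPM. PTPRQ, a receptor-type phosphatase of inner ear hair cells, and TMEM255B, a membrane protein, had 3.15 ± 0.45 and 18.0 ± 0.74 CPM at week 1. Both overlapped week 0 at week 4, with 17.9% and 14.0% of the increase left.

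Signalling and scaffold proteins were the largest group, with 11 members. In 6 of them the week 4 libraries overlapped those of week 0, as in 17 of all 59 members. MAP3K7CL had 7.64, 4.30, 5.28, 4.52 and 4.10 CPM at week 0, a lowest, median and highest of 51.7, 53.7 and 55.9 CPM at week 1, and of 24.4, 30.9 and 34.4 CPM at week 4. SH2D5, an adaptor with an SH2 domain, had 14.1, 13.4, 9.71, 14.1 and 17.4 CPM at week 0, 29.2, 31.5 and 35.1 CPM at week 1, and 12.97, 14.0 and 14.8 CPM at week 4. The 2 genes mark the extremes of the group: MAP3K7CL kept 52.3% of its increase and SH2D5 kept 1.49%. GIPC2, a PDZ domain protein, had 0.0647 ± 0.0441, 2.38 ± 0.21 and 0.626 ± 0.163 CPM at weeks 0, 1 and 4, and KCTD4 had 0.0801 ± 0.0714, 2.04 ± 0.30 and 0.651 ± 0.149 CPM. The untreated libraries held at most 10 counts of GIPC2 and 14 counts of KCTD4. The KCTD4 ratio of week 1 to week 0, 25.5, became 70.1 when week 0 replicates 1 and 4, which held 12 and 14 of its counts, were left out. ARHGEF28 and CCDC9B lay nearest to the limit of 2-fold, with 44.7 ± 2.25 and 143 ± 10.6 CPM at week 1. ABTB2, ALS2CL, ANKRD34A, MPP4 and SH3RF2 had 7.16 to 17.9 CPM at week 1 and kept 14.4% to 44.3% of their increase.

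Metabolic enzymes and membrane lipid proteins were 7 members, and the 4 most abundant had a ratio of week 1 to week 0 of 2.13 to 2.59. PRPS1, which makes the ribose phosphate donor of nucleotide synthesis, had 92.4, 78.6, 93.7, 77.6 and 78.9 CPM at week 0, a lowest, median and highest of 205, 215 and 221 CPM at week 1, and of 94.8, 120 and 122 CPM at week 4. Its lowest week 4 library was just above its highest week 0 library. SERINC2, of a family of serine-incorporating membrane proteins, had 66.0 ± 5.25, 171 ± 3.98 and 93.6 ± 3.79 CPM, and ATP8B1, a phospholipid flippase, had 69.4 ± 7.04, 160 ± 7.55 and 94.7 ± 8.99 CPM. FADS3, of the fatty acid desaturase family, had 44.6 ± 2.62, 95.02 ± 5.61 and 49.3 ± 2.25 CPM, with 9.42% of the increase left and week 4 libraries that overlapped week 0. EXTL1, a glycosyltransferase of the exostosin family, stood apart with a ratio of week 1 to week 0 of 14.1 and 52.3% of the increase left, at 0.615 ± 0.151, 8.65 ± 1.09 and 4.82 ± 0.54 CPM. GALNT3, which starts mucin-type O-glycosylation, and MGARP, a mitochondrial protein, had 5.01 ± 0.57 and 17.9 ± 0.99 CPM at week 1.

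Genes linked to cilia and centrosomes were 4 members, all with a ratio of week 1 to week 0 between 2.53 and 3.31. MOK, a kinase of the cilium, had 10.6, 10.8, 10.3, 10.6 and 10.6 CPM at week 0, a lowest, median and highest of 24.1, 27.2 and 28.3 CPM at week 1, and of 10.1, 11.4 and 12.04 CPM at week 4. The week 0 libraries of MOK were nearly alike and lay inside the range of the week 4 libraries, and 3.74% of the increase was left. NEK10, a kinase needed for motile cilia, CCDC81 and the dynein assembly factor DAW1 had 4.99 ± 0.57, 4.79 ± 0.36 and 2.60 ± 0.56 CPM at week 1, and of these only CCDC81 had all week 4 libraries above all week 0 libraries.

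The non-coding members were the lncRNAs LNCOG, PDCD6IP-DT and OSTN-AS1 and the ribosomal protein pseudogene RPL13AP20, with 12.2 ± 0.72, 14.3 ± 0.65, 4.65 ± 0.49 and 3.37 ± 0.35 CPM at week 1 and ratios of week 1 to week 0 of 2.56 to 4.78. The sources used here do not give the strand setting or the handling of reads with several matches. The values of OSTN-AS1 and PDCD6IP-DT, which neighbour genes on the other strand, and of the pseudogene are therefore uncertain.

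Gene length, which the rule did not use, and the spread between libraries were compared as medians without a test. Median gene length was 4487 bases in members, 5576 bases in the other 655 genes at least 2-fold up at week 1 and 4896 bases in all tested genes. The median coefficient of variation between libraries at week 4 was 11.2% in members, 7.94% in the other induced genes and 8.60% in all tested genes, whereas at week 1 it was 5.94%, 6.78% and 8.19%. Replicate 6 was the lowest week 4 library for the summed members.

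Of the 17 gene lists looked at, the p53 targets held the most of the 714 genes up at week 1 (15 of 30). That list was also the longest, and the 714 genes were among 16891 tested genes. The NF-kB list held 8 in 18 tested genes and the keratin list 5 in 11. By edgeR, 24 of the 29 tested p53 targets other than CDKN1A were higher at week 1 than at week 0 and 0 lower. Of all tested genes, 32.9% were higher and 34% lower. The median log2 fold change of these p53 targets was 1.09, against -0.02 over all. At week 4 against week 1, 3 were higher and 14 lower (21.8% and 18.6% of all), with a median of -0.15 against 0.01. At week 4 against week 0, 21 were higher and 3 lower (33.9% and 33.7% of all). Both comparisons with week 1 use the same week 1 libraries. GDF15, a secreted stress factor, had 8.36 ± 0.50, 90.6 ± 5.28 and 62.8 ± 5.91 CPM at weeks 0, 1 and 4, and its log2 fold change at week 4 against week 1 was -0.50 ± 0.06 (SE; edgeR adjusted p = 9.5e-07). BTG2, an antiproliferative gene, had 8.49 ± 0.68, 46.6 ± 2.09 and 43.0 ± 1.83 CPM and did not pass the test at week 4 against week 1 (log2 fold change -0.09 ± 0.05, edgeR adjusted p = 0.19).

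Beside the counts in the lists below, 32.9% of all tested genes were higher and 34% lower at week 1 than at week 0. At week 4 against week 1, 21.8% of all were higher and 18.6% lower. Among 19 tested YAP and TEAD targets other than ANKRD1, 9 were higher and 7 lower at week 1 than at week 0. In the same list 5 were higher and 6 lower at week 4 than at week 1. F3, tissue factor, was among them, with 305 ± 10.3, 509 ± 10.49 and 274 ± 32.0 CPM at weeks 0, 1 and 4 (week 4 against week 1, log2 fold change -0.86 ± 0.06, edgeR adjusted p = 6.8e-11). CCN2, a secreted matricellular protein of this list, fell to 741 ± 17.1 CPM at week 1, against 1069 ± 67.7 CPM at week 0, a log2 fold change of -0.37 ± 0.05 (edgeR adjusted p = 1.3e-06). Among 9 keratins outside the set, 4 were higher and 4 lower at week 1 than at week 0. Of 5 EGF-family ligands other than NRG1, 3 were higher and 2 lower. HBEGF had 15.3 ± 1.53, 26.3 ± 1.70 and 22.3 ± 1.98 CPM, while AREG had 23.7 ± 3.64, 0.789 ± 0.260 and 4.75 ± 2.79 CPM.

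The inflammatory lists held no member, and neither did most others, among them those of TGF-beta targets, sterol synthesis and the integrated stress response. Only 59 of 16891 tested genes were members, so an empty list of this length is no result. Of 18 genes of NF-kB and its feedback, 12 were higher and 2 lower at week 1 than at week 0, and 7 were higher and 5 lower at week 4 than at week 1. ICAM1, an adhesion molecule induced by NF-kB, lay just outside the limit, with 9.68 ± 0.72, 67.0 ± 4.50 and 40.5 ± 5.60 CPM at weeks 0, 1 and 4. Of 20 cytokines and chemokines, 10 were higher and 5 lower at week 1 than at week 0, and 9 were higher and 4 lower at week 4 than at week 1. A separate list, that of ERK feedback genes, also held no member. Of this list, DUSP5, a nuclear phosphatase that limits ERK, had 24.2 ± 2.53, 59.2 ± 1.57 and 36.6 ± 1.62 CPM. ERRFI1, an inhibitor of the EGF receptor, was higher again at week 4, with 274 ± 12.9, 509 ± 7.14 and 562 ± 34.4 CPM. In the ERK feedback list 8 of 16 tested genes were higher and 6 lower at week 1 than at week 0.

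The files of week 0 replicates 5 and 6 and of week 1 replicates 1 and 2 also held a gene length, which the other 13 did not. Within the files with a length, the ratio of week 1 to week 0 had a median of 3.65 over members, and within those without, 3.42; it was at least 2 in 56 and 58 of the 59. Within the files without a length, the ratio of week 4 to week 1 had a median of 0.535 and was at most 0.6 in 56. Without week 0 replicates 1 and 4, the ratio of week 1 to week 0 was at least 2 in 57 members and that of week 4 to week 0 was above 1 in 58, SH2D5 being the exception at 0.936.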

How the data were processed

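The authors deposited a table of raw gene counts per library, not normalized, by gene symbol. The submitters' processing notes name the aligner HISAT2 2.0.5.2, the counter featureCounts 1.4.6 and the build mm10. Since mm10 is a mouse build and the symbols are human, the true build is not known, and the coordinates given here belong to RefSeq promoters (GRCh38.p14). Tables listed 41041 entries. The entry without a name, 0.221% to 0.289% of counts, was left out, and genes encoded by mitochondrial DNA had no counts. Gene length came from the 4 deposited files that hold it.

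Levels are CPM on library totals without TMM factors. For whole-table calls, 16891 genes kept by filterByExpr were fitted with edgeR 4.0.16 in R 4.3.3 (TMM, a mean per group, all 17 libraries, quasi-likelihood test, Benjamini-Hochberg adjustment, calls at an adjusted p under 0.05); the biological coefficient of variation was 11.7%. The fit was tested on simulated data. Alternatives included DESeq2 1.42.0, other scaling and filters, a replicate block and libraries left out.

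The members, the 17 gene lists and the markers were chosen with earlier results of these data known. Genes named by rule were the 10 members highest in CPM (not per length) at week 1, the 10 of largest ratio of week 1 to week 0, the 5 with the least and the 5 with the most increase left (of those with at least 5 CPM at week 1), members in a list, the nearest genes at each limit, and up to 2 rising and 2 falling genes per list, of which only some are given. Roles and all other named members and relatives were chosen after their values were seen.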

Additional observations from a re-analysis of the deposited data

Results flagged for a closer look

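Within each group of 5 or 6 libraries, 180 sets of values (members and their sum) were searched for a library far from the others, by the gap to its nearest neighbour over the range of the group. Such a gap was found in 12, and chance alone gives about 5% of sets. Week 4 replicate 6 was the lowest of its group in 5 of the 12: for CCND1 (1439 CPM, next library 1555 CPM), MFGE8 (972 CPM, next 1074 CPM), PRPS1 (94.8 CPM, next 117 CPM), RRAD (3.14 CPM, next 5.36 CPM) and the sum of members (5060 CPM, next 5542 CPM). The sum contains CCND1 and MFGE8, so its gap in part repeats theirs.

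At week 1, replicate 5 was lowest for WNT5B (113 CPM, next 128 CPM) and GIPC2 (1.99 CPM, next 2.35 CPM), and replicate 4 was lowest for DNAJB4 (101 CPM, next 111 CPM) and highest for DAW1 (3.63 CPM, next 2.66 CPM). ANKRD1 was highest in week 1 replicate 6 (44.0 CPM, next 39.9 CPM) and in week 4 replicate 3 (26.3 CPM, next 20.9 CPM). DAW1 was highest at week 0 in replicate 1 (1.69 CPM, next 0.871 CPM).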

How the results depend on the processing

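The number of members moved most with the limits themselves: it was 37 with a ratio of week 1 to week 0 of at least 3, 19 with a week 4 to week 1 ratio of at most 0.5 and 138 with at most 0.7. TMM-scaled CPM gave 63 genes (55 of them members), DESeq2-type size factors 67 (56 members) and medians in place of means 62 (56 members). Leaving out 1 library at a time gave 55 to 64 genes, the lowest without week 4 replicate 6, and 51 members were kept whichever library was left out. Members lost under the scalings were MGARP, ATP8B1 and PSG5, and HSPB6 with TMM only. Over all genes, leaving out 1 library gave 10981 to 11372 calls for week 1 against week 0, 6218 to 7308 for week 4 against week 1 and 11015 to 11356 for week 4 against week 0. Replicate numbers were checked for pairing over 16 pairs: correlations of deviations were -0.07 to 0.26 and 5 passed 0.1. Libraries of unlike number were not compared in the same way, so these values cannot decide whether the numbers pair the libraries. With the replicate block the calls were 11096, 6669 and 11180, against 11305, 6835 and 11414 without it. Counts of calls under the other alternatives stayed within 1.5 times. For the 59 members, no fold change called in the main fit turned direction under an alternative run, DESeq2 included. TRIM55 at week 4 against week 0 was not called and so was not covered. The rule had set the direction of both comparisons with week 1, so a kept direction there adds little. The fold changes of MYOZ2 and KCTD4 moved with the week 0 libraries used. Other named genes were not rerun one by one. On the CPM scale the week 4 to week 0 ratio of SH2D5 was 1.02, and 0.936 without week 0 replicates 1 and 4. The folds of MYOZ2, GIPC2, NPPB and KCTD4 against week 0 rest on at most 27 counts per untreated library.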
